A study of Mus musculus with 7 samples.

Results

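The genes described here encode the secreted and cell-surface guidance cues of blood vessels and axons and their receptors, measured in liver endothelial cells with and without c-Maf. They comprise semaphorins, plexins, Slits, Robos, the Unc5 netrin receptors, Eph receptor tyrosine kinases and ephrins. Members were the rows of the gene count table whose mouse symbol fits these family names and whose reads summed to at least 50 over the 7 libraries. That gave 42 genes of 52636 rows, from 62 rows with fitting names. The other 20 lay under the limit, 5 of them with 0 counts in every library. Efna2, with 55 reads, was the member nearest the limit, and Efna4, with 44, the nearest row outside it. Neuropilins, the co-receptors of class 3 semaphorins, are not counted as members and appear below among the pathway partners.

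RNA was sequenced from 4 c-Maf KO and 3 control libraries of mouse liver endothelium (endothelial cells sorted by flow cytometry, polyadenylated RNA), to compare liver endothelium without this basic leucine zipper transcription factor with its control. The labels name the genotypes only as c-Maf KO and Control. The strain, age and sex of the mice, the deleted part of Maf, any Cre driver and whether each library is a separate animal are not stated in the labels, so p-values measure the spread between libraries. Libraries held 24772716 to 32960007 counts. Levels are given as CPM, reads scaled to a common library size by trimmed mean of M-values (TMM), and, for comparing genes with each other, as RPKM, the same value per kilobase of exon. A gene is said to have risen or fallen in the KO where its adjusted p was below 0.05 (edgeR quasi-likelihood test, Benjamini-Hochberg over 15512 genes), with SE for the error of a log2 fold change and SD over libraries for levels.

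Semaphorins bind plexins, in part through neuropilins, and plexin activation remodels the actin cytoskeleton and integrin adhesion. Ephrins are themselves membrane-bound, so that Eph receptors are activated by contact with a neighbouring cell. The ephrin-B2 and EphB4 pair is known for marking arterial and venous endothelium. Slits act through Robo receptors and netrins through Unc5 receptors, both repulsive in many settings, and Robo4 is the endothelial Robo.

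Maf itself stood at 28.9, 158.9, 124.5 and 37.7 CPM in KO 1 to 4, against 1664, 2088 and 2147 CPM in controls 1 to 3. Sinusoidal endothelial markers (10 genes) summed to 7673 to 12690 CPM in the KO, against 36720 to 40410 CPM in controls, and 8 pan-endothelial markers to 9832 to 14360 CPM against 17510 to 19460 CPM, with no marker of either list at 0. Hepatocyte markers (10 genes) summed to 1324, 329, 411 and 648 CPM in KO 1 to 4, against 272 to 302 CPM in controls, and 5 of them rose. Stellate cell and fibroblast markers (10 genes) summed to 11.7 to 49.8 CPM in the KO, against 23.5, 53.5 and 179 CPM in controls 1 to 3, and 5 of them fell (Dcn, Lrat, Reln, Des and Rgs5), with Lrat, Des and Rgs5 3.27-, 3.68- and 4.17-fold lower and without overlap. Kupffer cell and macrophage markers (10 genes) summed to 44.9 to 159.8 CPM in the KO and 83.6 to 203 CPM in controls, with 1 fall and 1 rise. T and NK cell markers summed to at most 0.326 CPM in the KO and 0.570 CPM in controls, with Ncr1 at 0 in every library. Platelet and megakaryocyte markers (8 genes, 5 tested) summed to 34.46 to 48.27 CPM in the KO and 23.85 to 27.69 CPM in controls, with 3 rises and 1 fall. Sums of erythroid, B cell, cholangiocyte and smooth muscle markers overlapped between the groups. Markers of dissociation stress (11 genes) summed to 11370 to 23180 CPM in the KO, against 7900 to 10240 CPM in controls. The part of these differences in the results below was not tested, unless a value is given.

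Guidance genes changed in both directions. Of 41 members that passed the filter on low counts, 11 rose (26.8%) and 13 fell (31.7%), where 23.0% of all genes tested rose, 22.2% fell and 45.2% did either. The median log2 fold change was -0.10 over these members and 0.04 over all genes tested. Sema3c alone did not pass the filter. In RNA from many cells, fewer cells of a type and less RNA per cell cannot be told apart. The groups' libraries did not overlap in 9 members with the KO above and 14 with the KO below, where 25.6% and 24.7% of all genes tested did so, 50.3% in all. By family, ephrins and Eph receptors contributed 5 rises and no fall, Unc5 receptors only falls, and plexins 5 falls and 1 rise. Scaling by library totals in place of TMM raised the median log2 fold change of all genes to 0.31, and gave 13 rises (background 41.1%) and 10 falls (background 12.7%) among the members. DESeq2 gave 11 rises (background 18.1%) and 15 falls (background 19.7%), and the 5 libraries of lane 5 alone, 3 KO and 2 control, 13 rises (background 19.4%) and 16 falls (background 24.2%). Lane 4, as named in the labels, held KO 3 and control 3 alone, too few for a test. Without control 1, 2 or 3, 8, 6 and 13 members rose (background 18.3, 14.9 and 17.6%) and 13, 11 and 11 fell (background 19.4, 16.2 and 18.3%). Without KO 1, 2, 3 or 4, 11, 10, 12 and 8 rose (background 20.0, 20.3, 24.7 and 18.0%) and 13, 12, 15 and 11 fell (background 20.4, 20.2, 25.8 and 18.8%). The share of falling members stayed above its background in each of these fits, while that of rising members was close to its background in several and under it with library totals and without control 2. Without KO 1 and KO 4, the libraries with the most hepatocyte transcripts, 6 rose (background 14.5%) and 8 fell (background 15.7%).

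**Figure D1:**
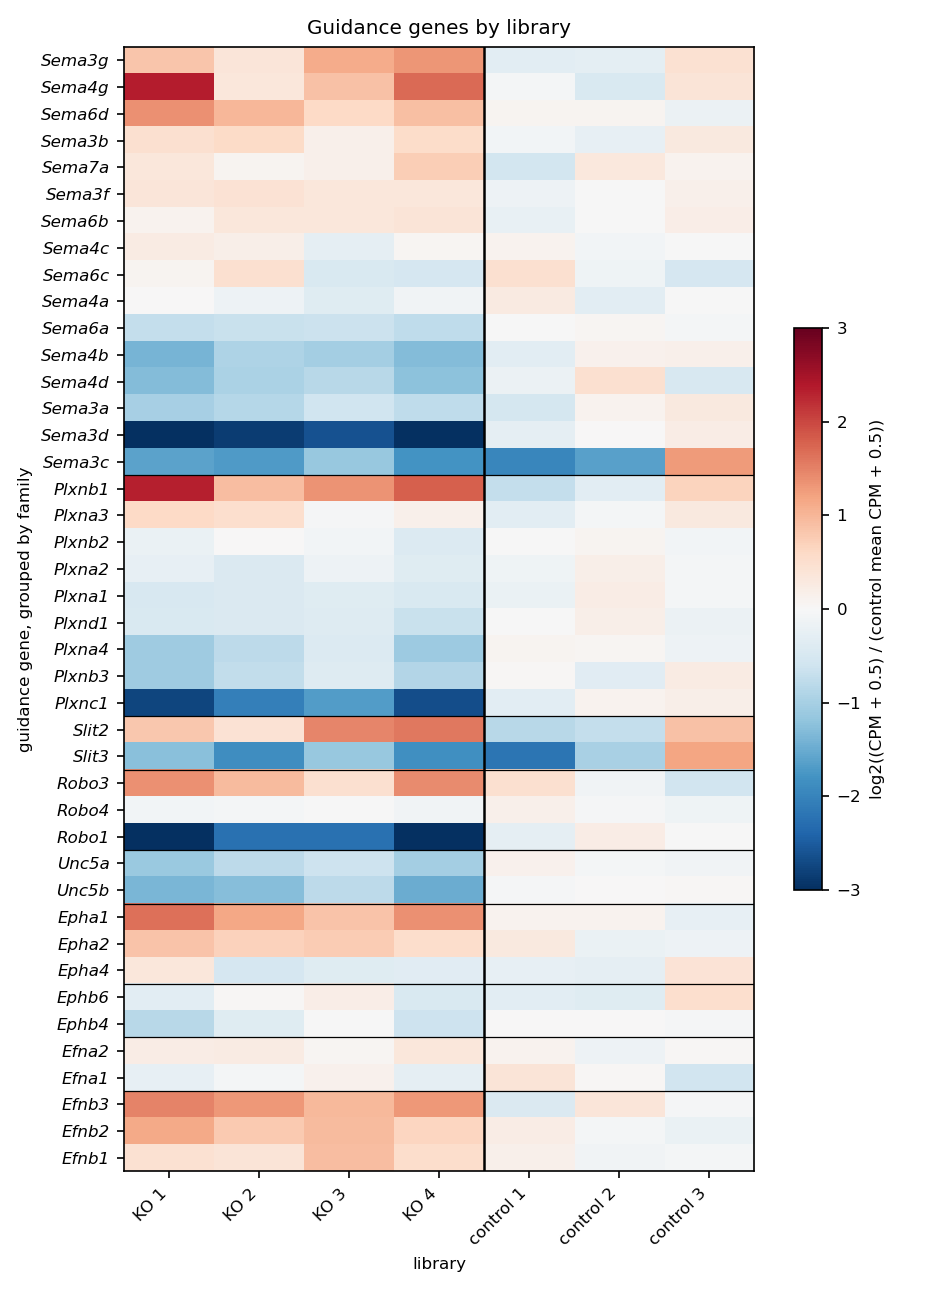
Guidance genes by library, as log2 of CPM plus 0.5 over the control mean plus 0.5 (colour, red higher and blue lower), with KO 1 to 4 left of controls 1 to 3 and rows grouped by family. Sema3d, Plxnc1 and Robo1 are blue in all 4 KO libraries, the ephrin-B genes are red in all 4, and Sema3c and Slit3 are high only in control 3.

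**Figure D2:**
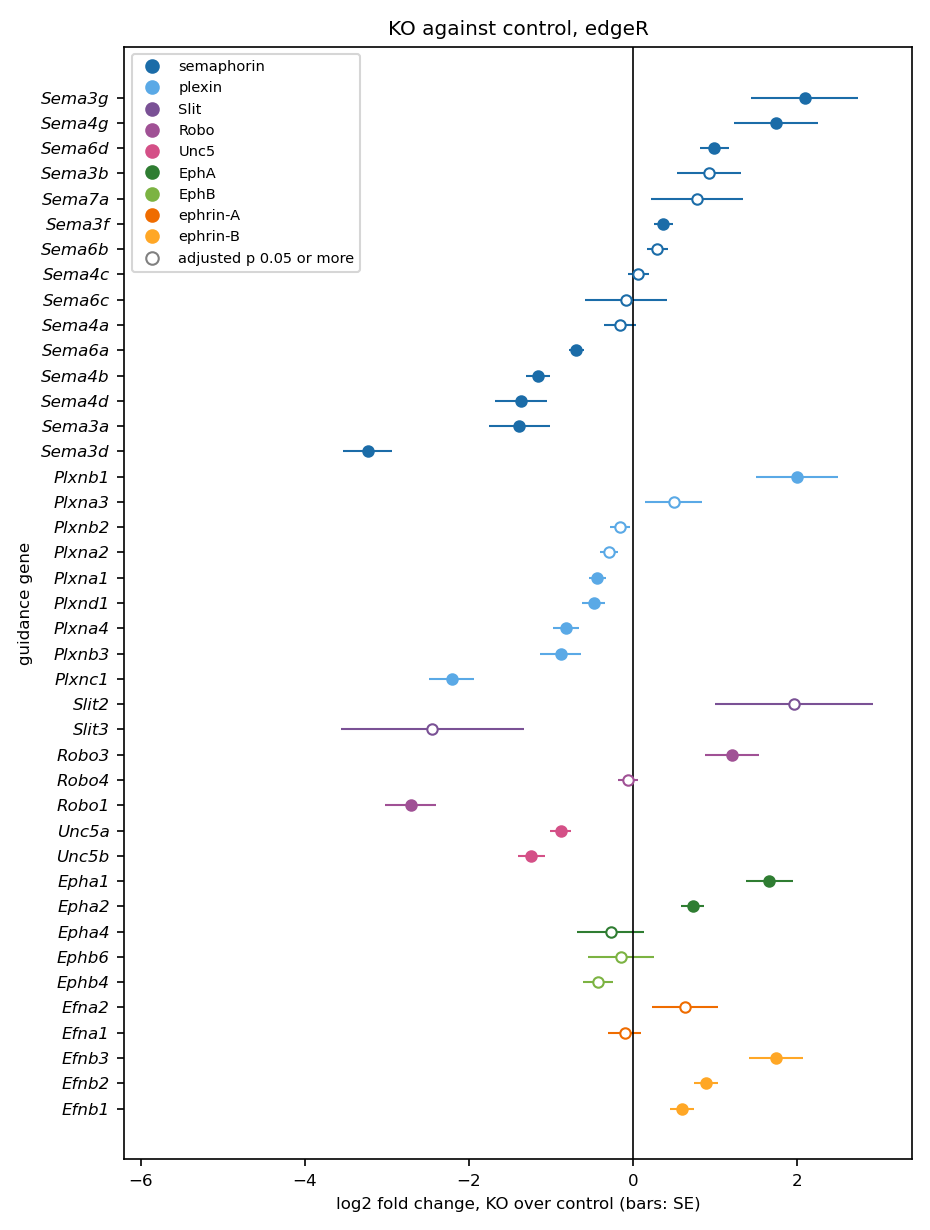
Log2 fold changes of KO over control (x axis) with SE bars for the 41 tested members, by family. Filled circles are past the threshold, and values run from -3.23 for Sema3d to 2.09 for Sema3g.

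The ligands of the Eph system that sit on the membrane through a transmembrane segment, the ephrin-Bs, all rose. Efnb2 (chromosome 8, 8617434 to 8661242, minus strand, GRCm38), the ligand that marks arterial endothelium, stood at 337, 267, 296 and 243 CPM in KO 1 to 4, against 179, 149 and 135 CPM in controls 1 to 3. Every KO library lay above every control (log2 fold change 0.89, SE 0.14, adjusted p = 0.00118). Efnb1 (chromosome X, 99136130 to 99148991, plus strand), its paralog, had 354, 333, 489 and 370 CPM in the KO libraries and 285, 239 and 244 CPM in controls. KO 3 was the highest and the groups did not overlap (log2 fold change 0.59, SE 0.15, adjusted p = 0.0109), although the call was lost without control 2 (adjusted p = 0.0564). Efnb3, a scarce member, had 3.04, 2.60, 1.98 and 2.63 CPM in the KO and 0.437, 1.12 and 0.746 CPM in controls (3.34-fold, adjusted p = 0.00268). Per length, Efnb1 was the most abundant ephrin-B, at 111.9 ± 20.3 RPKM in the KO and 74.2 ± 7.24 RPKM in controls, ahead of Efnb2 at 41.7 ± 5.91 and 22.5 ± 3.30 RPKM (SD, n = 4 and 3).

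Of the ephrin-As, which are held in the membrane by a lipid anchor, neither tested member passed. Efna1, the abundant one, had 94.3, 107.6, 123.2 and 92.4 CPM in KO 1 to 4 and 147, 114 and 75.2 CPM in controls (adjusted p = 0.697). All KO values lay within the range of the controls. Its fold change had no stable sign: it was -0.10 on the log2 scale with TMM and 0.16 with library totals. In lane 5 alone it passed as a fall (log2 fold change -0.46, adjusted p = 0.0221). Efna2 stayed under 0.4 CPM in every library (adjusted p = 0.222).

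Among the receptors, Epha2 rose and Ephb4 did not pass. Epha2, a receptor of ephrin-As, stood at 103, 92.1, 96.2 and 82.1 CPM in KO 1 to 4 and 69.7, 49.2 and 50.6 CPM in controls. The groups did not overlap (log2 fold change 0.73, SE 0.14, adjusted p = 0.00269). Ephb4 (chromosome 5, 137350109 to 137378669, plus strand), the receptor of ephrin-B2 and by far the most abundant Eph receptor at 161.8 ± 40.4 RPKM in the KO and 217 ± 3.69 RPKM in controls, had 565, 785, 997 and 656 CPM in KO 1 to 4, against 1018, 1015 and 987 CPM in controls. KO 3 lay inside the narrow control range and the other KO libraries below it (log2 fold change -0.42, SE 0.18, adjusted p = 0.0876). Without KO 3 the gene passed as a fall (log2 fold change -0.60, adjusted p = 0.00646), and so it did in DESeq2 (adjusted p = 0.0419) and in lane 5 alone (adjusted p = 0.0113). By edgeR 0 of the 10 Eph and ephrin genes fell, with 1 at an unadjusted p under 0.05, where 22.2% of all genes tested fell. For falls limma-voom called 0 of them (background 22.2%) and DESeq2 1 (background 19.7%).

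Less abundant Eph receptors were mixed. Epha1 had 4.10, 2.80, 2.18 and 3.33 CPM in the KO and 1.09, 1.08 and 0.746 CPM in controls (3.17-fold, adjusted p = 0.00156). Its exons share 236 bases with Zyx on the opposite strand, a gene of 258 CPM in the KO and 148 CPM in controls that rose as well (adjusted p = 0.000163), and reads of the 2 genes cannot be told apart without a known strand setting. Epha4 and the kinase-dead receptor gene Ephb6 averaged 0.8291 and 0.8904 CPM in the KO and 1.00 and 0.994 CPM in controls and did not pass (adjusted p = 0.610 and 0.789). All 5 Eph and ephrin rises also passed without KO 1 and KO 4.

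**Figure D3:**
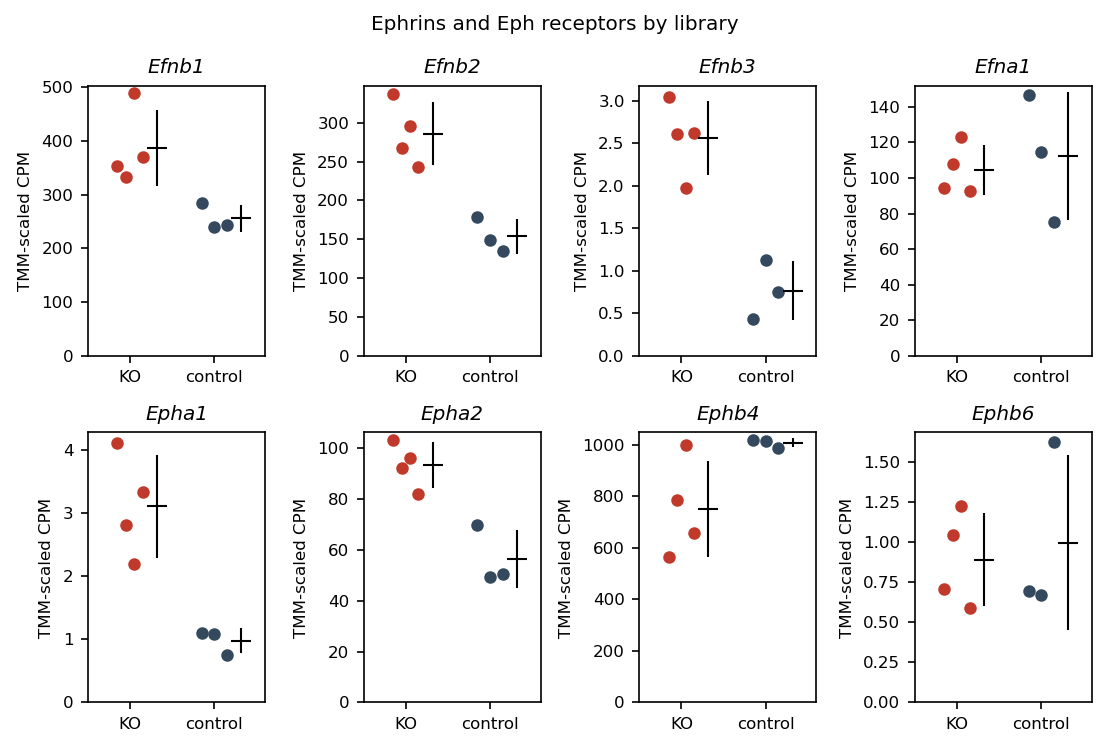
CPM of 4 ephrin and 4 Eph receptor genes in each library (circles), KO left and control right, with mean and SD beside them. The ephrin-B genes, Epha1 and Epha2 show no overlap between groups, whereas KO 3 reaches the control range for Ephb4.

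The ratio of Efnb2 to Ephb4 within a library does not depend on library scaling. It was 0.403, 0.230, 0.201 and 0.251 (RPKM over RPKM) in KO 1 to 4, against 0.119, 0.0992 and 0.0925 in controls 1 to 3. Efnb1 to Ephb4 gave 0.841, 0.571, 0.659 and 0.758 in the KO and 0.376, 0.317 and 0.332 in controls. Both ratios were higher in every KO library than in any control. With 4 against 3 libraries no exact permutation test can give a two-sided p below 0.0571, and none is given.

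The promoter sequences of Efnb1, Efnb2 and Ephb4 are shown because the ephrin-B ligands rose together while Ephb4, the receptor of ephrin-B2, did not pass. They were searched for TGCTGA, a core that Maf proteins are known to bind. These are the 250 bases before the RefSeq gene start (GRCm38.p6), each 5′ to 3′ on the gene's own strand, with TGCTGA or its reverse complement TCAGCA in capitals.
Efnb1, chrX:99135811-99136060, plus strand: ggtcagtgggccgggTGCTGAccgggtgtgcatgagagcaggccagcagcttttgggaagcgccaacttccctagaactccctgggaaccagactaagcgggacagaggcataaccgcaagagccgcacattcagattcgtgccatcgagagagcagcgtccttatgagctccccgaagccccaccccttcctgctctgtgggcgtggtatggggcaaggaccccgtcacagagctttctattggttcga
Efnb2, chr8:8661243-8661492, minus strand: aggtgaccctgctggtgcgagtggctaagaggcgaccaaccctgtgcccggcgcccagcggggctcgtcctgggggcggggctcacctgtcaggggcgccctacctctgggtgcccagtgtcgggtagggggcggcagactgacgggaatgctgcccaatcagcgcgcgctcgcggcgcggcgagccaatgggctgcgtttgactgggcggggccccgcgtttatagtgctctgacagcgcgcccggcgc
Ephb4, chr5:137349859-137350108, plus strand: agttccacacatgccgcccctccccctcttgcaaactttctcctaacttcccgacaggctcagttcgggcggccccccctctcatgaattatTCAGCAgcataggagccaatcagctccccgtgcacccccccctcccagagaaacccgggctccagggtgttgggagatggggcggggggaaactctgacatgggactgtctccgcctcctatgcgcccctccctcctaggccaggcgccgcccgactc
The Efnb1 window holds the core 235 bases before the start and the Ephb4 window 158 bases before it, while the Efnb2 window holds none. RefSeq promoters were found for 36 of the 42 members, in 48 windows, and Efnb3 was not among them. TGCTGA, on either strand, was in 4 windows (8.33%), those of Efna1, Efnb1, Ephb4 and Plxnb2, against 16.1% of all 32851 promoter windows. The longer Maf recognition element, which is TGCTGA, any 1 base and TCAGCA and so contains the core, was in 0 member windows and in 2 of all windows. The AP-1 core TGANTCA, which overlaps that element, was in 3 member windows (6.25%) and 6.75% of all. A match describes these letters only, and its absence from a window says nothing of binding elsewhere.

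Secreted class 3 semaphorins moved in opposite directions. Sema3d (chromosome 5, 12383385 to 12588948, plus strand), a secreted guidance cue, had the largest fall of the members. It stood at 4.63, 9.31, 11.1 and 4.78 CPM in KO 1 to 4, against 57.96, 70.5 and 82.1 CPM in controls. The highest KO library held less than any control (9.40-fold lower, log2 fold change -3.23, SE 0.30, adjusted p = 6.23e-05). Sema3f, which signals through Nrp2 and was the most abundant semaphorin per length, at 178 ± 5.94 RPKM in the KO and 138 ± 15.5 RPKM in controls, had 924, 969, 908 and 901 CPM in the KO and 640, 708 and 800 CPM in controls. All KO libraries lay above all controls, by a small step (log2 fold change 0.37, SE 0.12, adjusted p = 0.0293). That call was lost without control 1, control 2, KO 2 or KO 4 (adjusted p = 0.124, 0.11, 0.0809 and 0.0569). It was also lost with no filter, with the replicate number as a block, or without KO 1 and KO 4 (adjusted p = 0.0627, 0.111 and 0.0572).

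Sema3a lies 536.5 kb from Sema3d on chromosome 5 and also fell, at a low level of 0.394 ± 0.101 CPM in the KO and 1.05 ± 0.422 CPM in controls (log2 fold change -1.38, SE 0.37, adjusted p = 0.0142). The call was lost without control 2 or control 3 (adjusted p = 0.0559 and 0.0621), and without KO 1 and KO 4 (adjusted p = 0.0942). Sema3g rose at 0.887 ± 0.375 CPM in the KO and 0.213 ± 0.234 CPM in controls (adjusted p = 0.0270), with KO 2 at 0.423 CPM below control 3 at 0.482 CPM. Without control 1, control 2 or KO 4 it did not pass (adjusted p = 0.0904, 0.102 and 0.0699), nor without KO 1 and KO 4 together (adjusted p = 0.124). Sema3b, 72.3 kb from Sema3f on chromosome 9, had 0.649 and 0.342 CPM in KO and control (adjusted p = 0.0800), and passed as a rise without control 3 or KO 3 (adjusted p = 0.0389 and 0.0495).

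Sema3c showed its level in a single library. Its raw counts were 4, 3, 13 and 2 in KO 1 to 4 and 0, 3 and 96 in controls 1 to 3, too few for the filter. Control 3 was also the library with the highest sum of stellate cell and fibroblast markers, 179 CPM, and the part of such cells in this value was not tested.

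Membrane-bound semaphorins of class 4 mostly fell or did not pass. Sema4b stood at 48.9, 67.9, 63.4 and 52.6 CPM in KO 1 to 4 and 104, 141 and 144 CPM in controls, without overlap (log2 fold change -1.16, SE 0.15, adjusted p = 0.000343). Sema4d, a plexin-B1 ligand also known from lymphocytes, fell at 1.08 ± 0.244 CPM in the KO and 2.80 ± 1.17 CPM in controls (adjusted p = 0.00703). Sema4c, at 175 and 168 CPM in KO and control, and Sema4a, at 4.31 and 4.82 CPM, did not pass (adjusted p = 0.699 and 0.514). Sema4g had 11.9, 2.57, 3.99 and 7.46 CPM in the KO and 1.86, 1.29 and 2.68 CPM in controls (log2 fold change 1.74, SE 0.51, adjusted p = 0.0222). KO 1 and KO 4 were the highest and KO 2 lay just under control 3. That is also the order of the hepatocyte marker sum at its upper end, 1324 CPM in KO 1 and 648 CPM in KO 4. KO 1 and KO 4 also held the least Maf transcript, and the part of hepatocytes in Sema4g was not tested. The call on Sema4g was lost without KO 1 and KO 4 (log2 fold change 0.76, adjusted p = 0.151), without control 1, control 2 or KO 4 alone (adjusted p = 0.0644, 0.0861 and 0.0541), or in limma-voom (adjusted p = 0.0665).

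The transmembrane class 6 semaphorins, which bind plexin-As, divided within the class. Sema6d (chromosome 2, 124089969 to 124667770, plus strand) had 658, 507, 386 and 472 CPM in KO 1 to 4, against 270, 268 and 225 CPM in controls. All KO libraries lay above all controls (1.99-fold, log2 fold change 0.99, SE 0.18, adjusted p = 0.00205). Sema6a fell, with 269, 281, 285 and 262 CPM in the KO and 439, 464 and 427 CPM in controls. The spread within each group was small beside the gap between them (log2 fold change -0.69, SE 0.09, adjusted p = 0.000386). Their within-library ratio, Sema6d to Sema6a in RPKM, was 2.03, 1.5, 1.12 and 1.498 in KO 1 to 4 and 0.510, 0.480 and 0.437 in controls 1 to 3, so the order of the 2 genes differed between genotypes in every library.

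Sema6b, the second most abundant semaphorin at 93.5 ± 7.60 RPKM in the KO and 76.1 ± 11.2 RPKM in controls, missed the threshold (log2 fold change 0.30, adjusted p = 0.0817) but passed as a rise with library totals (adjusted p = 0.00594) or upper-quartile factors (adjusted p = 0.0210). Sema6c and the lipid-anchored Sema7a averaged 0.799 and 0.570 CPM in the KO and 0.831 and 0.336 CPM in controls and did not pass (adjusted p = 0.904 and 0.277). By edgeR 4 of 15 tested semaphorins rose (26.7%) and 5 fell (33.3%), beside 23.0% and 22.2% of all genes tested. The rises numbered 1, that of Sema6d, without control 1, without control 2 or without KO 4 (background 18.3, 14.9 and 18.0%). Sema3f, Sema3g and Sema4g each lost their call in these fits.

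Plexins, the semaphorin receptors, were mostly lower in the KO with TMM scaling. Among the 9 plexins there were 5 falls and 1 rise, beside 22.2% and 23.0% of all genes tested falling and rising. With library totals the falls numbered 2 (background 12.7%), as those of Plxnd1, Plxna1 and Plxnb3 were lost. The falls were again 2 without KO 1 and KO 4 (background 15.7%), with the same 3 lost, and none rose (background 14.5%). They numbered 3 without control 1 or without KO 4 (background 19.4 and 18.8%). Plxnc1 (chromosome 10, 94790866 to 94944835, minus strand), the receptor of Sema7a, had the largest change: 326, 534, 694 and 351 CPM in KO 1 to 4, against 1773, 2359 and 2487 CPM in controls. The highest KO library stayed far under the lowest control (4.63-fold lower, log2 fold change -2.21, SE 0.27, adjusted p = 0.000262). Plxnd1, the endothelial plexin that Sema3e binds directly, was the most abundant member of all, at 301 ± 25.0 RPKM in the KO and 420 ± 52.2 RPKM in controls. It had 2222, 2265, 2365 and 1940 CPM in the KO and 3027, 3469 and 2711 CPM in controls (log2 fold change -0.48, SE 0.14, adjusted p = 0.0228). The groups did not overlap, yet the call was lost without control 1, control 2, KO 2 or KO 4 (adjusted p = 0.0592, 0.111, 0.0504 and 0.0662) and with library totals (log2 fold change -0.22, adjusted p = 0.164). It was also lost with no filter or with the replicate number as a block (adjusted p = 0.0658 and 0.161). Sema3e itself had 3 counts in all, from control 3.

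Plxna4, Plxna1 and Plxnb3 also fell. Plxna4 had 31.6, 38.6, 49.99 and 31.4 CPM in KO 1 to 4 and 71.0, 69.1 and 60.5 CPM in controls (log2 fold change -0.82, SE 0.16, adjusted p = 0.00322). Plxna1 had 53.5, 55.4, 58.1 and 54.2 CPM in the KO and 65.4, 87.6 and 71.8 CPM in controls (log2 fold change -0.44, SE 0.10, adjusted p = 0.00806), and missed the threshold with library totals (log2 fold change -0.17, adjusted p = 0.149). Neither gene's groups overlapped. Plxnb3 fell at a low level, 1.52, 2.05, 2.76 and 1.80 CPM in the KO and 3.90, 2.87 and 4.52 CPM in controls (adjusted p = 0.0199). Its call was lost without control 1, control 3 or KO 4 (adjusted p = 0.0537, 0.0738 and 0.0576). Library totals and the replicate number as a block also lost it (adjusted p = 0.063 and 0.051). Plxna2, at 214 and 262 CPM in KO and control, had no overlap between groups but an adjusted p of 0.0562, and passed without KO 3 (adjusted p = 0.0198) and in DESeq2 (adjusted p = 0.0225). Plxnb2, at 272 and 304 CPM, and Plxna3, at 1.12 and 0.797 CPM, did not pass (adjusted p = 0.297 and 0.266).

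Plxnb1, the receptor of Sema4d, was the plexin that rose. It had 9.34, 3.22, 4.48 and 6.34 CPM in KO 1 to 4 and 0.692, 1.08 and 2.63 CPM in controls (log2 fold change 2.00, SE 0.50, adjusted p = 0.0106). KO 1 and KO 4, with the most hepatocyte transcripts and the least Maf transcript, were again the highest. Without them Plxnb1 missed the threshold (log2 fold change 1.41, adjusted p = 0.0738), where 14.5% of all genes tested rose. The part of hepatocytes in this rise was not tested.

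As a share of the plexin family's summed RPKM, which is free of library scaling, Plxnc1 made up 9.76, 14.7, 17.7 and 11.7% in KO 1 to 4, against 30.6, 34.0 and 40.5% in controls 1 to 3. Plxnd1 made up 76.1, 71.3, 69.0 and 74.1% in the KO and 59.8, 57.1 and 50.6% in controls. Plxnb2 took 8.49 ± 0.517% in the KO and 5.24 ± 0.347% in controls. Shares in a family depend on one another, so a lower share of Plxnc1 raises those of other plexins. Neither Plxnd1 nor Plxnb2 rose in CPM, with means of 2198 and 272 in the KO and 3069 and 304 in controls. Among semaphorins, Sema6d took 11.9 ± 2.43% in the KO and 6.78 ± 1.13% in controls, Sema6a 7.78 ± 0.454% and 14.2 ± 1.33%, and Sema3f 44.3 ± 0.892% and 38.4 ± 1.43%. None of these shares overlapped between the groups.

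**Figure D4:**
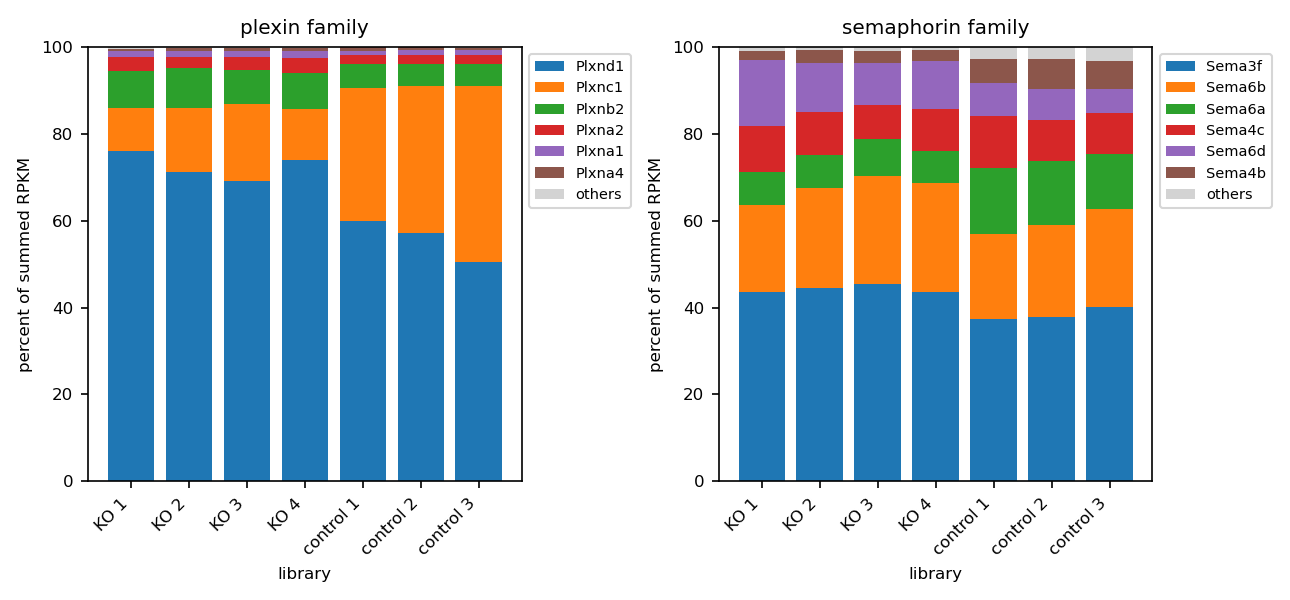
Share of each gene in the summed RPKM of its family, in percent, for plexins (left) and semaphorins (right), with KO 1 to 4 left of controls 1 to 3. Plxnc1 takes 9.76 to 17.7% of plexin RPKM in the KO and 30.6 to 40.5% in controls, and the remainder is mostly Plxnd1.

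The promoters of the leading semaphorin and plexin falls are given in the same form, as the 250 bases before the RefSeq start (GRCm38.p6), 5′ to 3′ on the gene's strand. Neither holds TGCTGA or TCAGCA, so no letters are in capitals.
Sema3d, chr5:12382916-12383165, plus strand: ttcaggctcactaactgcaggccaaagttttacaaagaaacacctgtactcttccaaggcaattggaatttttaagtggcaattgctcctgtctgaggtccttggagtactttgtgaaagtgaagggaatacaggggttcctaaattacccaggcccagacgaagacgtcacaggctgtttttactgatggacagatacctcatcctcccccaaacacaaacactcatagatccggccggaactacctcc
Plxnc1, chr10:94944846-94945095, minus strand: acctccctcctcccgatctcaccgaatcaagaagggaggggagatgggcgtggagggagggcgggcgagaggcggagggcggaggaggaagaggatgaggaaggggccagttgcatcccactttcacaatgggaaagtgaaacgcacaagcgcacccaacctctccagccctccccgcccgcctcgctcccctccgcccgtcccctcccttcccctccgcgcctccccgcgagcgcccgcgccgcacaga
They differ in base composition, with 46.8% G and C in the Sema3d window and 68.8% in that of Plxnc1.

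Slit ligands were near the limit of detection. Slit2 had raw counts of 30, 22, 67 and 74 in KO 1 to 4 and 0, 1 and 26 in controls 1 to 3, and missed the threshold (log2 fold change 1.96, SE 0.96, adjusted p = 0.124). Its only sizeable control value came from control 3, without which it passed as a rise (adjusted p = 0.00202), as it did in limma-voom (adjusted p = 0.0234) and with the lane as a covariate (adjusted p = 0.0367). Slit3, the Slit with the higher control level per length, had 13, 4, 19 and 5 counts in the KO and 0, 16 and 108 in controls, or 0.460, 0.130, 0.553 and 0.148 CPM against 0, 0.666 and 4.74 CPM. Its fold change (log2 -2.45, SE 1.12, adjusted p = 0.101) rested on control 3: without that library it was -0.0016 (adjusted p = 0.999), and without control 1 it passed as a fall (adjusted p = 0.0161). Control 3 held the most stellate cell and fibroblast transcripts, and the part of those cells was not tested.

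Robo receptors diverged. Robo1 (chromosome 16, 72308306 to 73046095, plus strand), a Slit receptor, had 7.25, 19.7, 19.7 and 10.7 CPM in KO 1 to 4, against 77.9, 110.5 and 93.7 CPM in controls. No KO library came near the control range (6.55-fold lower, log2 fold change -2.71, SE 0.31, adjusted p = 0.000200). Robo4, the endothelial family member and 1 of the 3 most abundant genes described here, at 252 ± 7.36 RPKM in the KO and 262 ± 25.5 RPKM in controls, had 1318, 1331, 1391 and 1301 CPM in the KO and 1539, 1365 and 1273 CPM in controls (log2 fold change -0.06, SE 0.12, adjusted p = 0.701). The KO libraries all lay inside the control range, and its sign turned with library totals (log2 fold change 0.20). Robo1 made up 0.340 ± 0.144% of Robo RPKM in the KO and 2.14 ± 0.487% in controls. Robo3 rose, with 8.91, 6.61, 4.63 and 9.21 CPM in the KO and 4.59, 2.91 and 1.97 CPM in controls (log2 fold change 1.21, SE 0.33, adjusted p = 0.0154). It did not pass without control 2 (adjusted p = 0.0596) or without KO 1 and KO 4 (adjusted p = 0.121). Robo3 lies 554 bases from Robo4 on chromosome 9, on the opposite strand and with the 3′ ends facing, and the strand setting of the counts is not given.

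Both detected Unc5 receptors, which bind netrins, fell, while Unc5c and Unc5d had 0 counts in every library, where a limit of 3 counts corresponds to 0.0910 to 0.121 CPM of the library totals (counting error only). Unc5b (chromosome 10, 60762593 to 60831581, minus strand), the endothelial netrin receptor, had 9.55, 10.3, 14.5 and 8.79 CPM in KO 1 to 4, against 24.8, 25.6 and 26.0 CPM in controls. The KO libraries lay well below the tightly grouped controls (log2 fold change -1.24, SE 0.16, adjusted p = 0.000399). Unc5a (chromosome 13, 54949411 to 55006018, plus strand) was the more abundant, at 17.9 ± 2.82 RPKM in the KO and 33.0 ± 2.97 RPKM in controls. It had 62.8, 80.0, 88.6 and 67.6 CPM in the KO and 152, 133 and 128 CPM in controls, without overlap (log2 fold change -0.88, SE 0.13, adjusted p = 0.000658). Both also passed without KO 1 and KO 4 and with library totals.

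**Figure D5:**
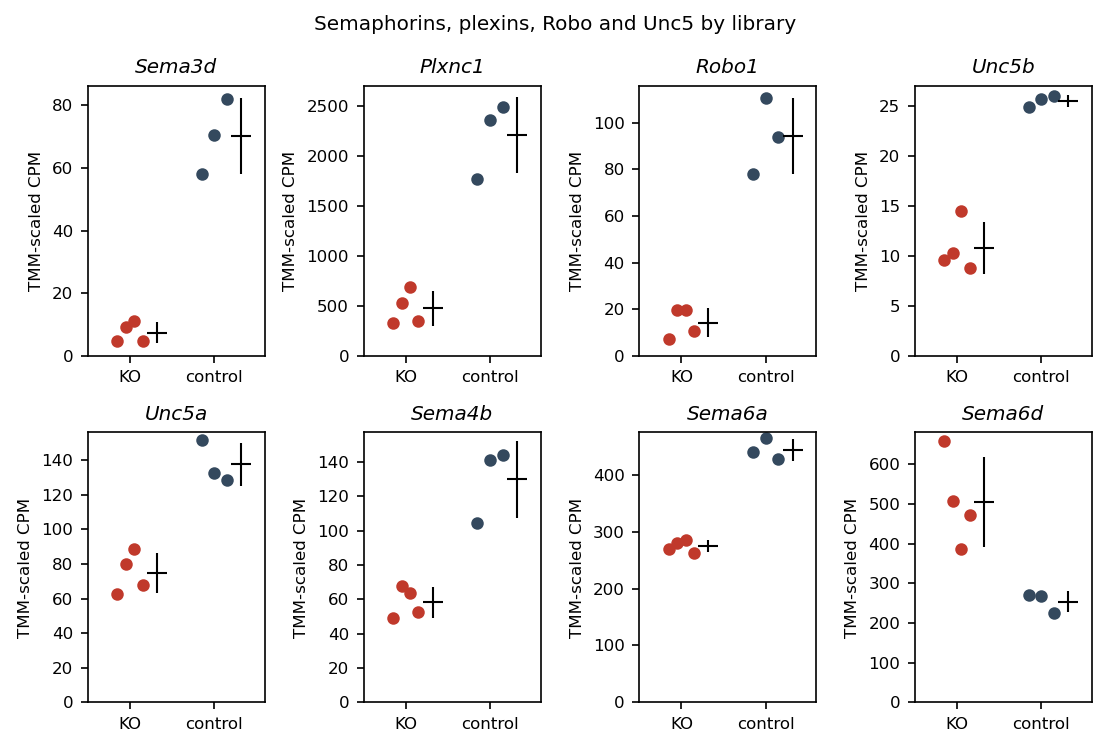
CPM in each library (circles), KO left and control right, with mean and SD, for 3 genes with the largest falls (Sema3d, Plxnc1, Robo1), both Unc5 receptors, Sema4b, Sema6a and Sema6d. The groups do not overlap in any of the 8 panels, and Sema6d is the one with the KO above.

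Libraries within the KO were ordered alike in most falls. In 12 of 13 members that fell (92.3%), each of KO 2 and KO 3 was higher than each of KO 1 and KO 4, with Sema3a the exception, where 64.6% of all 3448 falling genes had that order. The reverse order held in 5 of 11 members that rose (45.5%), namely Efnb3, Epha1, Plxnb1, Robo3 and Sema4g. In these each of KO 2 and KO 3 was lower than either of KO 1 and KO 4, against 40.5% of all 3561 rising genes. The same 2 libraries held more Maf transcript (158.9 and 124.5 CPM against 28.9 and 37.7 CPM) and fewer hepatocyte transcripts (329 and 411 CPM against 1324 and 648 CPM). They also held more sinusoidal (11490 and 12690 CPM against 7673 and 8869 CPM) and pan-endothelial marker transcripts (12140 and 14360 CPM against 9832 and 10700 CPM), and fewer erythroid ones (7.62 and 5.94 CPM against 40.1 and 21.8 CPM). With 4 libraries these measures cannot be told apart.

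Partners of these pathways, 79 genes in 4 lists, were counted in the same way. Of 69 tested, 31 fell (44.9%) and 13 rose (18.8%), beside 22.2% and 23.0% of all genes, and their median log2 fold change was -0.30 against 0.04. With library totals 20 fell (background 12.7%) and 19 rose (background 41.1%). The excess of falls over rises in number thus depended on the scaling. In both scalings the share that fell was above its background and the share that rose below it. The neuropilins, co-receptors of class 3 semaphorins and VEGF, fell: Nrp2 had 239, 292, 349 and 215 CPM in KO 1 to 4, against 861, 997 and 878 CPM in controls (3.33-fold lower, adjusted p = 8.22e-05), and Nrp1 averaged 755 ± 158 CPM in the KO and 1289 ± 133 CPM in controls (adjusted p = 0.00589). Of 23 tested genes of semaphorin signalling 13 fell and 5 rose. Arhgef11, a guanine nucleotide exchange factor that plexin-Bs bind, fell 1.747-fold and Itga1, an integrin subunit that pairs with Itgb1 in a Sema7a receptor, 3.32-fold (adjusted p = 0.000175 and 0.000586). Sh3bp1, a Rac GTPase-activating protein downstream of Sema3e, rose 2.22-fold (adjusted p = 0.000353).

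Of 9 tested netrins and other partners 5 fell (55.6%) and 2 rose (22.2%), beside 22.2% and 23.0% of all genes. Ntng2, a netrin-G with a lipid anchor, averaged 78.2 ± 1.203 CPM in the KO and 228 ± 13.7 CPM in controls (adjusted p = 5.83e-06), and the laminin-related netrin gene Ntn4 239 ± 78.0 and 640 ± 26.1 CPM (adjusted p = 0.000979). Flrt genes encode ligands of Unc5 receptors, and went both ways. Flrt2 had 381, 181, 176 and 209 CPM in KO 1 to 4 and 17.4, 19.6 and 23.0 CPM in controls (11.8-fold higher, adjusted p = 4.08e-05), while Flrt1 averaged 1.74 ± 0.966 CPM in the KO and 22.2 ± 5.70 CPM in controls (adjusted p = 0.000134). Flrt2 was thus above the controls in each KO library and Flrt1 below.

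Of 17 tested genes of Slit, Robo and Unc5 signalling 3 fell (17.6%) and 5 rose (29.4%), shares close to the 22.2% and 23.0% of all genes. Glypican 1, Gpc1, a heparan sulfate proteoglycan that binds Slits, averaged 6.08 ± 4.60 CPM in the KO and 108 ± 17.4 CPM in controls (adjusted p = 0.000353). The adaptor gene Nck2 rose 1.90-fold, and of the Robo-binding GTPase-activating proteins Srgap3 rose 4.29-fold to 2.85 ± 0.852 CPM in the KO, against 0.661 ± 0.298 CPM in controls, and Srgap1 fell 1.37-fold (adjusted p = 0.00139, 0.00175 and 0.00176). Of 20 tested genes of Eph signalling 10 fell and 1 rose (5.0%), beside 22.2% and 23.0% of all genes. The guanine nucleotide exchange factor genes Vav2 and Vav3 fell 1.61- and 1.73-fold and Tiam1 rose 1.95-fold (adjusted p = 0.000482, 0.00163 and 0.00124).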

How the data were processed

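Per the submitters' processing notes, the authors used FastQC 0.11.5, STAR 2.7.6a and build GRCm38. The deposited table holds raw counts of reads for each Ensembl gene, not normalized. No source used here names the counting tool, annotation release or strand setting, and the labels' protocols name an unstranded and a stranded library kit. Symbols matched 52403 of 52636 IDs. Positions and exon lengths come from GENCODE mouse release 21 (GRCm38).

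Counts were analysed in R 4.3.3 with edgeR 4.0.16 (filterByExpr with a minimum of 10 and total of 15, TMM factors of 1.04 to 1.14 in KO and 0.877 to 0.921 in control libraries, quasi-likelihood F-test, no covariate, Benjamini-Hochberg adjustment), after the script was tested on simulated data. SE is the absolute log2 fold change over the square root of F. Alternatives were other library factors, no filter, DESeq2 1.42.0, limma-voom (limma 3.58.1), the lane as a covariate, the lane 5 libraries by themselves, a replicate block, and leaving libraries out.

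Every pair of libraries within a group differed by more than sampling noise (chi-square over degrees of freedom 13.2 to 96.1). Floors of 3 counts cover counting error only. The members, partner lists and marker lists were chosen with earlier results of these data known. Values in every library are given for called members whose average log2 CPM reached 1 and for the most abundant member of each family by control RPKM, with up to 4 partners per list by smallest p and both neuropilins; 1 partner that the rule names is not reported here. Efnb3, Sema3c, Slit2 and the overlapping gene Zyx fall outside that rule and were given values after these were seen.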

Additional observations from a re-analysis of the deposited data

Results flagged for a closer look

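Of 42 members checked for a KO library standing apart, 1 was marked, and chance alone marks about 1 group in 20. Epha4 had 1.41 CPM in KO 1, against 0.554, 0.669 and 0.679 CPM in KO 2 to 4, so that the gap to the nearest library was 0.855 of the KO range, above Dixon's 95% limit for 4 samples. Its controls lay at 0.765, 0.749 and 1.49 CPM, and the gene did not pass the threshold between the groups (adjusted p = 0.610). Groups of 3 controls were not checked.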

How the results depend on the processing

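Each tested member was refitted under 18 alternatives, except Efna2, which passed the filter on low counts in 12. Of 24 called members, 13 stayed past the threshold with the same sign in every alternative and 0 changed sign. The same count was not made over all genes. Their calls also varied, with 2234 to 6373 rises and 1976 to 3930 falls over the alternatives. Of the 17 others, 7 passed in at least 1 alternative with the same sign and 8 changed sign, never past the threshold. Causes were not tested. Efna2, with 55 reads, was the shallowest member, and Sema3c was not tested.

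Leaving out single libraries gave 6 to 13 rises and 11 to 15 falls among members, 2 to 6 rises and 8 to 11 falls among semaphorins and plexins, 0 to 1 falls among Eph and ephrin genes, and 0 to 2 rises among Slit, Robo and Unc5 genes. Over all genes tested, 14.9 to 24.7% rose and 16.2 to 25.8% fell in these fits. Without KO 1 and KO 4 together there were 6 rises and 8 falls among members, 1 and 5 among semaphorins and plexins, 0 rises among Slit, Robo and Unc5 genes, and 2234 rises over all genes. In that fit 14.5% of all genes tested rose and 15.7% fell. Eph and ephrin falls numbered 1 in DESeq2 (background 19.7%) and 2 in lane 5 alone (background 24.2%). Slit, Robo and Unc5 rises numbered 2 in limma-voom, with the lane as a covariate and in lane 5 (background 21.6, 22.2 and 19.4%). Library totals gave 20 partner falls and 19 partner rises, and 6373 rises (41.1%) and 1976 falls (12.7%) over all genes.

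Sign changes (log2 fold change) were as follows. With library totals Ephb6 was 0.10, Efna1 0.16, Robo4 0.20, Plxnb2 0.10, Sema4a 0.10 and Sema6c 0.18. With upper-quartile factors Efna1 was 0.020, Robo4 0.066 and Sema6c 0.041. In lane 5 Epha4 was 0.17 and Ephb6 0.15. Without single libraries Epha4 ran from -0.65 to 0.11, Ephb6 from -0.37 to 0.39, Efna1 from -0.33 to 0.14, Robo4 from -0.13 to 0.015, Sema4a from -0.32 to 0.012, Sema6c from -0.49 to 0.46, and Sema4c from -0.00218 to 0.14. Without KO 1 and KO 4 Ephb6 was 0.20, Efna1 0.042, Sema4c -0.025 and Sema6c 0.11, and without control 3 and KO 1 Ephb6 was 0.48 and Sema4c -0.0105.

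Same-numbered libraries correlated at -0.0085, 0.15 and 0.069 in their deviations from the group means, and the other pairs at -0.17 to 0.073. Taken within groups of 3 and 4 libraries, these values cannot settle whether the numbers pair them. With the replicate number as a block, which leaves KO 4 without a partner, 10 members rose and 11 fell (2542 and 2627 of all genes), and Ephb6 was 0.063 and Sema6c 0.15.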
